A study of Homo sapiens with 9 samples.

Results

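The genes that write and remove acetyl and methyl groups on histones were followed in libraries labelled as transfected HEK293T cells, a line derived from human embryonic kidney, given a protamine plasmid or its control. The members were all genes whose symbol follows the family names HDAC, SIRT, KAT, KDM, KMT, SETD, SETDB, SUV39H, EHMT, PRMT or NSD, without Y-linked genes, which gave 78 of the 57338 genes in the deposited table. By the labels, the cells had been transfected with empty vector, an EGFP plasmid, or with human protamines fused to EGFP, hPRM1 (genotype PRM1 in the labels) or hPRM2 (genotype PRM2). Live cells with high EGFP were sorted for RNA, so by the labels and methods all 3 groups share the transient transfection, the EGFP and the gate (PRM1 and the marker genes go against the label of the libraries labelled hPRM1), and the protamines were overproduced in cells that do not normally make them. Each group held 3 libraries, n = 3 throughout, and nothing in the sources says that these came from separate cultures, so p-values measure only the spread between these libraries, which may be technical.

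Histone acetyltransferases transfer acetyl groups to lysines of histone tails, and zinc-dependent deacetylases and NAD-dependent sirtuins take them off. Methyltransferases with a SET domain place methyl groups on defined lysines, with H3K4 methylation typical of active promoters, H3K36 methylation of transcribed gene bodies, and H3K9 and H4K20 methylation of silent chromatin. Demethylases of the KDM family reverse these marks, and PRMT enzymes methylate arginines of histones and many other proteins. In sperm development, protamines replace most histones.

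Before any comparison, the transgenes were checked in every library. PRM2, which codes for protamine 2, was listed at 71224, 60050 and 36130 RPKM (reads per kilobase of gene, scaled to a fixed total) in hPRM2 replicates 1, 2 and 3, and at 0 in the 6 other libraries. PRM1, which codes for protamine 1, was listed at 0 in all 9 libraries, including those labelled hPRM1. The plasmid's PRM1 transcript was therefore not seen in the table, and these libraries are called the libraries labelled hPRM1 throughout.

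Those libraries also stood apart in marker genes. The 8 erythroid markers summed to between 2060200 and 2266400 RPKM in the libraries labelled hPRM1, against 3.09 to 18.2 in empty vector and 2.16 to 16.3 in hPRM2, and HBB, HBD, ALAS2, AHSP and CA1 were at 0 in both of these groups. HBD was near 0 in the libraries labelled hPRM1 too, at 0, 0 and 0.79 RPKM. The 10 neutrophil and monocyte markers summed to 3922 to 5064 RPKM with 9 of 10 detected (FCGR3B, a neutrophil marker, was at 0), the 10 lymphocyte markers to 873 to 1102 with all detected, and the 5 platelet markers to 319 to 560 with all detected. In the other 6 libraries these lists reached at most 20.7, 70.6 and 13.5 RPKM, and LCK was the one lymphocyte marker detected. LCK was at 33.3 to 70.6 RPKM in hPRM2, above its 21.7 to 29.5 in the libraries labelled hPRM1. Conversely, the 6 HEK293T markers summed to 33.9 to 41.0 RPKM in the libraries labelled hPRM1, where LIN28B and IGF2BP1 were at 0, against 3232 to 5160 in empty vector and 1546 to 5382 in hPRM2. Most of the sum in empty vector and hPRM2 was CKB, with means of 3465 and 2669 RPKM against 8.94 in the libraries labelled hPRM1. HMGA1 averaged 373, 262 and 28.3 RPKM in the same order. PEG10 went the other way and was near 0 throughout, with means of 0.092, 0.098 and 0.41 RPKM. The part of these other-cell transcripts in each result on the libraries labelled hPRM1 was not tested, and because those libraries carry library names from another number series, library series and label cannot be told apart. In bulk RNA, fewer cells of a type and less RNA per cell cannot be told apart either.

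The depth behind the values was estimated from the smallest steps of the RPKM values. It came to 7930000 to 10790000 reads on genes in empty vector, 4210000 to 5860000 in the libraries labelled hPRM1 and 1270000 to 2650000 in hPRM2. These are reads counted on genes in the table and not the reads sequenced, whose order between the groups is another. The paper reports the most reads for control samples and, on average, fewer for hPRM1 than for hPRM2. An RPKM of 1 over a kilobase is thus worth about 7.93 to 10.8 reads in empty vector but 1.27 to 2.65 reads in hPRM2, so low values in hPRM2 rest on very few reads. Among the hPRM2 libraries, replicate 1 stood apart: 20 members were at 0 in it, against 9 and 8 in replicates 2 and 3, and its log2 values across the 78 members correlated with theirs at r = 0.56 and 0.61, against 0.92 between replicates 2 and 3 (across genes, which are not independent replicates). Replicate 1 nevertheless had the highest estimated depth of its group, 2650000 reads on genes against 1270000 and 1610000 in replicates 2 and 3. The median SD of a member on the log2(RPKM + 1) scale was 0.94 in hPRM2, against 0.29 in the libraries labelled hPRM1 and 0.33 in empty vector.

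Start-site sequence was available from RefSeq (GRCh38.p14) for 71 of the 78 members. It is shown for the enzymes whose levels stood out most, SETDB2 (high in hPRM2), HDAC7 (high in the libraries labelled hPRM1), HDAC2 and SUV39H2 (both low there), and KMT2E (abundant in all 3 groups). Each is the longest stretch within the 250 bases before the start site that holds no annotated exon, given 5′ to 3′ on the gene's strand, with CCAAT and GGGCGG, or their reverse complements ATTGG and CCGCCC, in capitals. The stretches are chr13:49444127-49444273 on the plus strand, chr12:47819981-47820153 on the minus strand, chr6:113971286-113971398 on the minus strand, chr10:14878687-14878819 on the plus strand and chr7:105013980-105014140 on the plus strand.
SETDB2: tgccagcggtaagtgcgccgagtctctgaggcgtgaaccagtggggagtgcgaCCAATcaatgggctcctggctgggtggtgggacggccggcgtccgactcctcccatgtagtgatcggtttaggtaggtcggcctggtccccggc
HDAC7: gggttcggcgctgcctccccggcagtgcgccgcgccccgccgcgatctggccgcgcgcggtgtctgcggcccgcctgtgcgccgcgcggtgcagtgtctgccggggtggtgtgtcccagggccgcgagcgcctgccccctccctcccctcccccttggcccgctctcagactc
HDAC2: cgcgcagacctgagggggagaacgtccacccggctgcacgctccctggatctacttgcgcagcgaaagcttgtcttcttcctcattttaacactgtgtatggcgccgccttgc
SUV39H2: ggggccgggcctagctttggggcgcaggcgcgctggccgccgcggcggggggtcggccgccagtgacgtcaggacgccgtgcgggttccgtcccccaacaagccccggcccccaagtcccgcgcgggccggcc
KMT2E: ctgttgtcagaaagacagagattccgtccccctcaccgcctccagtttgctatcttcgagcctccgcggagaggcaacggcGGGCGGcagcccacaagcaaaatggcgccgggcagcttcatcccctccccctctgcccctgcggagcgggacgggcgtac
One CCAAT lies in the SETDB2 stretch and one GGGCGG in that of KMT2E, and the other 3 hold neither. Over the whole 250-base windows, 32.1% of the 109 member windows and 32.0% of all 35116 windows held CCAAT on either strand, and 65.1% against 42.6% held GGGCGG. These matches describe letters only.

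In empty vector, the enzymes were broadly expressed: 73 of 78 were above 0 in all 3 libraries, 46 averaged at least 10 RPKM, and the median of their means was 12.6 RPKM. The most abundant were PRMT2, an arginine methyltransferase and transcriptional coregulator, at 199.5 ± 29.3 RPKM (SD), PRMT1, the main source of asymmetric arginine methylation, at 172 ± 43.4, and HDAC1, a catalytic subunit of several corepressor complexes, at 143 ± 15.4. NSD3, an H3K36 methyltransferase, and PRMT5, the main symmetric arginine methyltransferase, followed at 128 ± 24.96 and 96.9 ± 37.5. KDM4E was listed at 0 in all 9 libraries. Levels between genes are per length, and since the 3′ tags of this protocol do not grow in number with gene length, the RPKM of long genes is too low against that of short ones.

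The order changed in the other groups. In hPRM2, SETDB2 was the most abundant member at 1070.5 ± 617 RPKM, ahead of KMT2E, an MLL-family protein that binds methylated H3K4, at 216 ± 163 and PRMT1 at 163 ± 34.2. In the libraries labelled hPRM1, KMT2E at 157 ± 14.0, NSD3 at 144 ± 8.06 and PRMT2 at 121 ± 43.4 RPKM led, and their order is not separated by the spread of PRMT2. HDAC1 and PRMT1, among the highest in empty vector, averaged 17.9 ± 3.85 and 23.9 ± 6.43 RPKM there. The heat map of levels by library shows these shifts gene by gene.

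**Figure D1:**
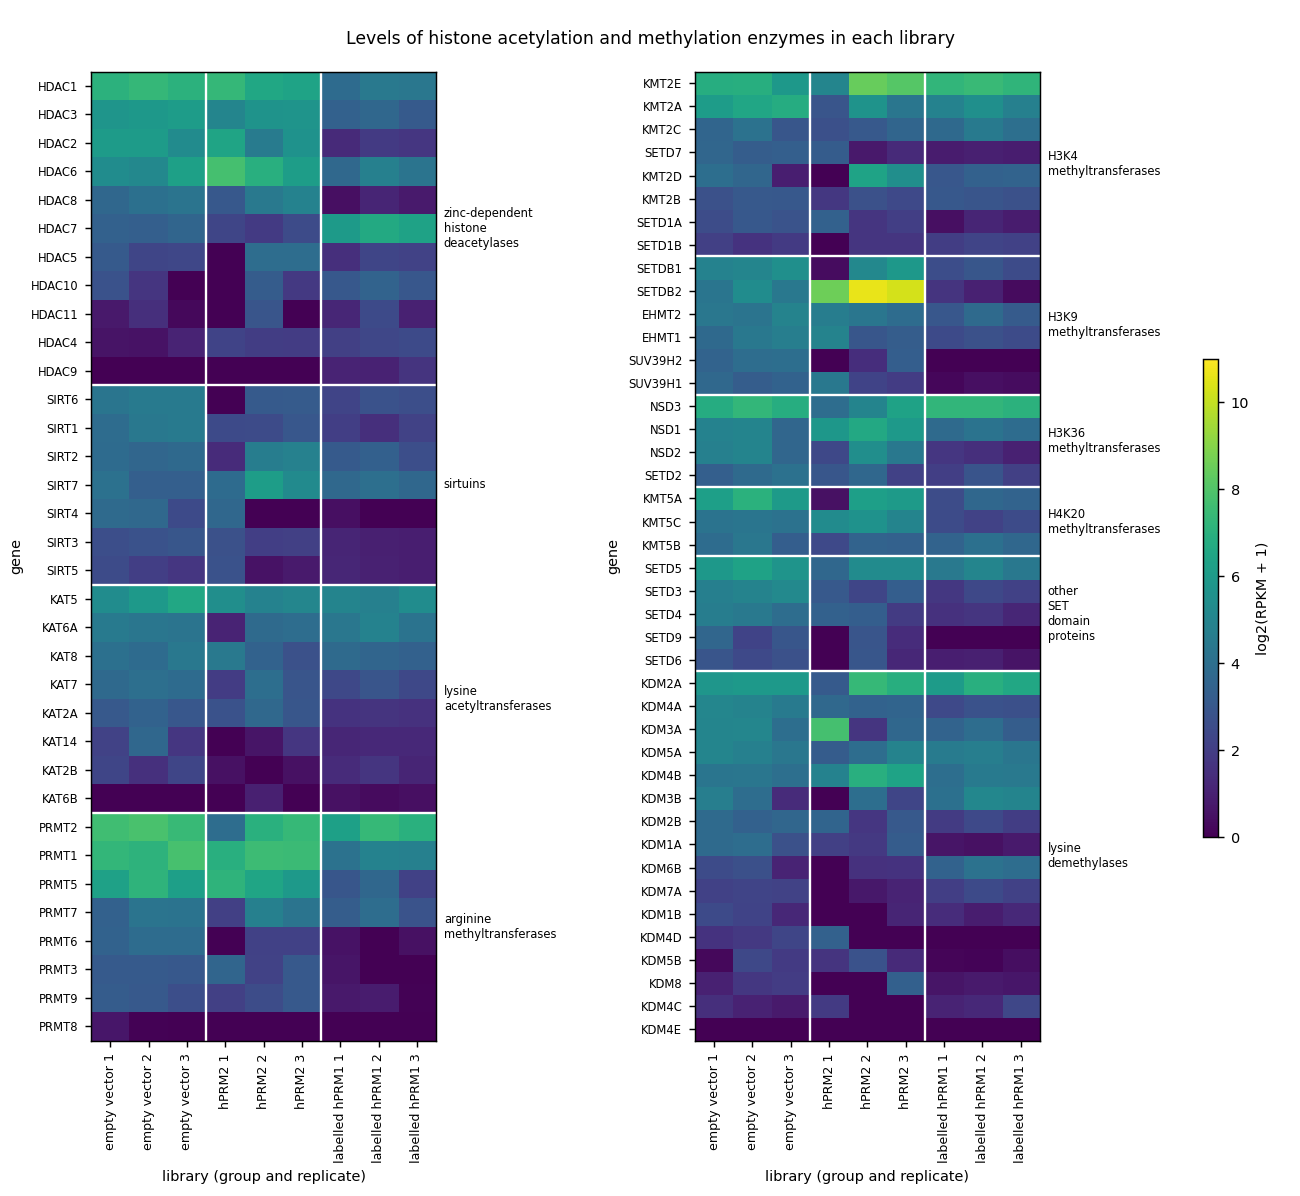
Level of each enzyme, as log2(RPKM + 1) in colour, in each of the 9 libraries (columns, by group and replicate), with genes in rows grouped by enzyme class and ordered within a class by their mean in empty vector. KDM5C and KDM6A are left out. SETDB2 is brightest in the 3 hPRM2 libraries, HDAC7 is brighter in the libraries labelled hPRM1 than in the other 6, and hPRM2 replicate 1 holds 20 members at 0 where replicates 2 and 3 hold 9 and 8.

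The libraries labelled hPRM1 were first compared with empty vector. As deposited, the median of all 13588 genes tested was −1.72 on the log2 scale, the shift against which single genes are read, and the median of the 74 members tested was −1.34. Of these 74 members, 4 were called higher and 43 lower by limma (adjusted p at most 0.05 and at least 2-fold), or 5.41% and 58.1%, against 12.9% and 62.5% of all genes tested. After a median-of-ratios rescaling 28 members were higher and 16 lower (29.2% and 28.5% of all genes), and after quantile normalization 25 and 20 (25.6% and 32.3%). The member median then turned to 0.53 and 0.31, above the all-gene medians of −0.09 and −0.30. Calls in the same direction under all 3 scalings were made for 4 members higher and 16 lower, against 12.9% and 28.0% of all genes, and the bar chart of calls by scaling gives these counts for each comparison. By non-overlap of the groups 7 members were higher and 48 lower, against 14.5% and 66.4% of all genes. A total of 13 members passed the filter on low values (1 RPKM in 3 libraries) through one of the groups alone, with no library of the other at 1 RPKM, which selects them for a difference. They include 1 of the 4 members higher and 9 of the 16 lower under all 3 scalings (HDAC9, and KDM1A, KDM4D, PRMT3, PRMT6, PRMT9, SETD9, SIRT4, SUV39H1 and SUV39H2), whose calls are therefore no support and whose values are given as a description. HDAC4 and HDAC8 are not in this count. In the group where each was low only 1 library reached 1 RPKM, so they too passed through the other group and their calls are no support.

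**Figure D2:**
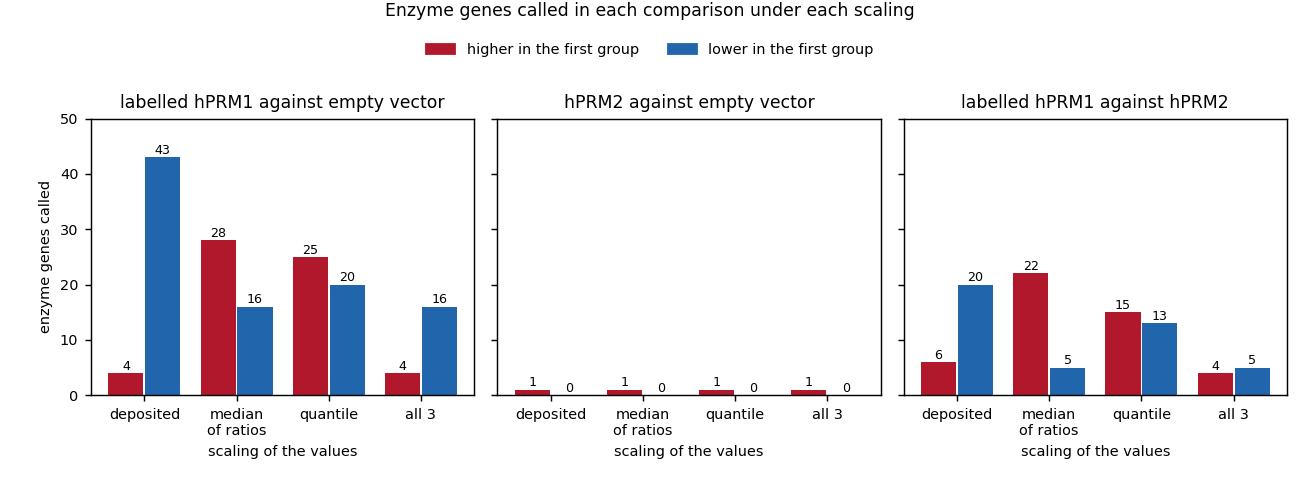
Number of enzyme genes called higher (red) and lower (blue) in the first-named group by limma, for 3 comparisons, in the deposited scaling, after median of ratios, after quantile normalization, and under all 3. In the libraries labelled hPRM1 against empty vector, 4 higher and 43 lower calls became 28 and 16 after median of ratios, while hPRM2 against empty vector held 1 higher call throughout.

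Deacetylases moved in both directions in the libraries labelled hPRM1. HDAC7, a class IIa deacetylase known from lymphocyte and endothelial development, was at 9.80, 9.07 and 10.9 RPKM in empty vector, 3.95, 2.68 and 4.65 in hPRM2, and 63.0, 102 and 80.5 in the libraries labelled hPRM1. The last 3 libraries lay far above all others, a mean 8.27 times that of empty vector (log2 difference 2.90 ± 0.23 SE, limma adjusted p = 4.28e-05), and the rise held under all 3 scalings. HDAC4, another class IIa enzyme, rose under all 3 scalings from 0.48, 0.44 and 1.15 to 3.20, 4.08 and 4.54 RPKM (1.56 ± 0.26, adjusted p = 0.00126). Of empty vector only replicate 3 reached 1 RPKM, so HDAC4 passed the filter through the libraries labelled hPRM1 and this call is no support. In hPRM2 it was at 3.63, 2.98 and 2.86, also apart from empty vector (1.32 ± 0.43, adjusted p = 0.129, not called). HDAC5, the remaining class IIa enzyme, was at 7.63, 3.92 and 4.04 RPKM in empty vector and 1.77, 3.97 and 3.45 in the libraries labelled hPRM1, which overlapped (−0.60 ± 0.34, adjusted p = 0.148). HDAC9, of the same class, was listed at 0 in all empty vector and hPRM2 libraries and at 1.12, 1.10 and 2.13 RPKM in those labelled hPRM1, through which alone it passed the filter. With a pseudocount of 5 the difference of HDAC4 (0.65) fell short of the 2-fold limit.

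The class I deacetylases HDAC1, HDAC2, HDAC3 and HDAC8 were all called lower as deposited, of which HDAC2 and HDAC8 under all 3 scalings (all genes 62.5% and 28.0%). HDAC2, a partner of HDAC1 in corepressor complexes, was at 64.5, 65.2 and 38.1 RPKM in empty vector and 1.46, 2.70 and 2.38 in the libraries labelled hPRM1. It fell by 4.14 on the log2 scale (SE 0.30, adjusted p = 2.84e-05), the lowest difference of any member tested, and was 25.6 times lower by the ratio of means. HDAC8, a class I enzyme that also acts on cohesin, fell from 11.9, 15.9 and 17.8 to 0.35, 1.199 and 0.74 RPKM, and both falls held under all 3 scalings. HDAC1 was at 135, 161 and 133 RPKM in empty vector and 13.5, 20.6 and 19.6 there. Its groups did not overlap (log2 difference −2.95 ± 0.22, adjusted p = 3.25e-05), and the fall held as deposited and after quantile normalization but missed the 2-fold limit after median of ratios (−0.78). Among the 7 sirtuins 5 were called lower as deposited and 1 under all 3 scalings, against 62.5% and 28.0% of all genes. The 1 was SIRT4, a mitochondrial sirtuin, from 12.8, 11.97 and 4.49 RPKM to 0.35, 0 and 0, with the filter passed through empty vector alone.

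All 6 H3K9 methyltransferases were called lower as deposited, and SUV39H1, SUV39H2 and SETDB2 were called lower under all 3 scalings (all genes 62.5% and 28.0%). SUV39H2, which trimethylates H3K9 in heterochromatin, was at 10.3, 14.2 and 14.6 RPKM in empty vector and listed at 0 in all 3 libraries labelled hPRM1. SUV39H1, its close relative, was at 12.03, 8.34 and 10.05 in empty vector and 0.13, 0.36 and 0.29 there (−3.13 ± 0.23). SETDB2 was at 18.2, 40.4 and 19.96 in empty vector and 2.13, 1.02 and 0.26 there (−3.68 ± 0.44, adjusted p = 0.000266). In all 3 genes the groups were fully apart. SUV39H1 and SUV39H2 passed the filter through empty vector alone, which selects them for this, so their calls and separation are no support. EHMT2, the G9a enzyme that adds mono- and dimethyl groups, showed the smallest fall of the class (−1.18 ± 0.31), and its direction turned after median of ratios (0.88, below the 2-fold limit) and quantile normalization (0.47).

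Of the H3K4 methyltransferases, 3 of 8 were lower and none higher as deposited, against 62.5% and 12.9% of all genes. After median of ratios and after quantile normalization 5 were called higher each time, against 29.2% and 25.6% of all genes. These were KMT2B, KMT2C, KMT2D, KMT2E and SETD1B. After the same rescalings 0 and 1 were lower, against 28.5% and 32.3% of all genes. Higher calls after rescaling were not particular to this class. They were made for 6 and 5 of 11 zinc-dependent deacetylases, 7 and 7 of 16 demethylases, and 3 and 2 of 7 acetyltransferases. KMT2E, counted in this class by its family name, was at 115, 117 and 57.5 RPKM in empty vector and 150, 173 and 148 in the libraries labelled hPRM1. Its groups did not overlap, and its difference was 0.76 ± 0.30 as deposited (adjusted p = 0.0522, not called), 2.96 after median of ratios and 2.54 after quantile normalization. SETD7, a monomethyltransferase of H3K4 and other proteins, was lowest in the class, with 11.5, 8.44 and 9.13 RPKM against 0.80, 0.98 and 0.86 (−2.50 ± 0.21, and −0.91 after median of ratios, with the filter passed through empty vector alone).

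Enzymes of H3K36 and H4K20 divided in a similar way. NSD2, which dimethylates H3K36, fell under all 3 scalings from 26.5, 30.7 and 11.51 RPKM to 2.31, 1.79 and 1.04, and KMT5A, the H4K20 monomethyltransferase active around mitosis, from 73.5, 128 and 63.1 to 4.80, 11.6 and 10.2. NSD3 was at 112, 156 and 115 RPKM in empty vector and 150, 148 and 135 in the libraries labelled hPRM1, groups that overlapped (0.19 ± 0.19), and was called higher after both rescalings. KMT5B, which adds further methyl groups to H4K20, differed by −0.10 ± 0.33 as deposited and was called higher after both rescalings (1.94 and 1.53). All 5 other SET domain proteins were called lower as deposited, and SETD4 and SETD9 under all 3 scalings (all genes 62.5% and 28.0%). SETD9 passed the filter through empty vector alone. SETD5 fell least of the other SET domain proteins (−1.33 ± 0.27), and its direction turned after rescaling (0.83 and 0.36, not called).

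Of the 8 arginine methyltransferases 7 were tested, 5 were lower as deposited and 4 under all 3 scalings, against 62.5% and 28.0% of all genes. The 4 were PRMT3, PRMT5, PRMT6 and PRMT9, of which all but PRMT5 passed the filter through empty vector alone. PRMT5 was at 78.4, 140.0 and 72.2 RPKM in empty vector and 6.59, 11.6 and 3.36 in the libraries labelled hPRM1 (−3.65 ± 0.45, adjusted p = 0.000302). PRMT6, which methylates an arginine of the H3 tail, went from 9.86, 13.7 and 14.0 to 0.43, 0 and 0.40. PRMT1 was at 156, 139 and 221 against 16.5, 28.3 and 26.9 (−2.80 ± 0.29, adjusted p = 0.000125), a fall called as deposited and after quantile normalization and short of 2-fold after median of ratios (−0.62). PRMT2 and PRMT7 were not called as deposited (−0.77 ± 0.30 and −0.61 ± 0.38), and both were called higher after the rescalings (1.44 and 1.04 for PRMT2, 1.42 and 1.04 for PRMT7).

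Among the 18 lysine demethylases, 16 were tested, 1 was called higher and 7 lower as deposited, against 12.9% and 62.5% of all genes. KDM6B, which removes H3K27 methylation and is induced in activated macrophages, was at 4.78, 5.39 and 1.13 RPKM in empty vector, 0, 1.94 and 2.02 in hPRM2, and 10.1, 16.5 and 14.4 in the libraries labelled hPRM1. All 3 of the last lay above the other 6 libraries (1.75 ± 0.46, adjusted p = 0.0108), and the rise held under all 3 scalings. Both of the following passed the filter through empty vector alone. KDM1A, the LSD1 demethylase of CoREST complexes, was at 12.9, 14.3 and 5.70 RPKM there and at 0.55, 0.43 and 0.76 in the libraries labelled hPRM1, and KDM4D, an H3K9 demethylase, was at 2.03, 2.57 and 3.87 and then at 0 in each library. The X-linked KDM5C and KDM6A were lower as deposited (−1.45 ± 0.26 and −1.59 ± 0.39) and not called after either rescaling. Of the 8 acetyltransferases 7 were tested. KAT2A, the catalytic subunit of SAGA, KAT7 and KAT14 were called lower as deposited and none under all 3 scalings (all genes 62.5% and 28.0%). The direction of KAT2A turned after median of ratios (−1.57 ± 0.21 to 0.20). KAT6A showed the highest difference of the class (0.11 ± 0.24).

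**Figure D3:**
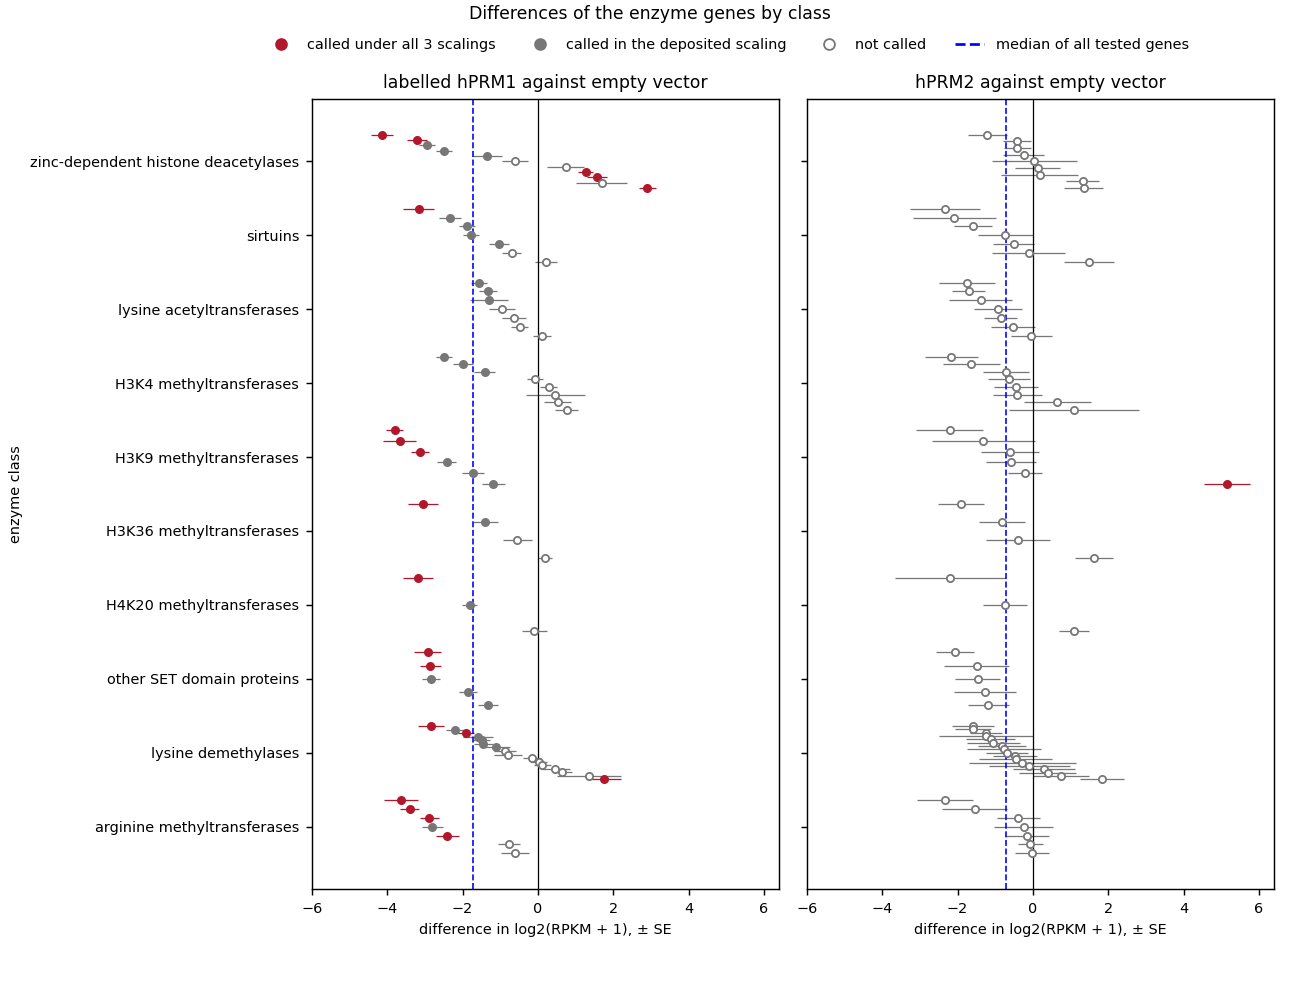
Difference of each tested enzyme in log2(RPKM + 1) (± SE), by enzyme class, for the libraries labelled hPRM1 against empty vector (left) and hPRM2 against empty vector (right), which share the empty vector libraries. The blue dashed line is the median of all tested genes, −1.72 and −0.72, and filled points were called in the deposited scaling (grey) or under all 3 scalings (red). On the left red points lie on both sides, from HDAC2 at −4.14 to HDAC7 at 2.90, and on the right SETDB2 at 5.16 is the single called point.

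hPRM2 was compared with the same empty vector libraries. The median of all 13126 genes tested was −0.72 as deposited, and that of the 73 members tested was −0.62. Of these members 1 was called higher and 0 lower by limma, against 1.36% and 1.37% of all genes tested, and 19 members had an unadjusted p under 0.05. After median of ratios it was again 1 and 0 (1.59% and 0.571% of all genes), with 11 members at an unadjusted p under 0.05, and after quantile normalization 1 and 0 (2.61% and 0.533%), also with 11. Calls under all 3 scalings were 1 and 0 as well, against 1.20% and 0.175% of all genes, and the per-gene test of the study's methods called 0 members in either direction, with 12 at an unadjusted p under 0.05. By non-overlap of the groups 5 members were higher and 20 lower, against 6.01% and 29.9% of all genes.

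The 1 called member was SETDB2, an H3K9 methyltransferase related to SETDB1 and known for silencing in innate immune cells. It was at 18.2, 40.4 and 19.96 RPKM in empty vector and at 382, 1573 and 1256 in hPRM2 (log2 difference 5.16 ± 0.61 SE, limma adjusted p = 0.0157). The lowest hPRM2 library, replicate 1, was still far above the highest of empty vector. The call held under all 3 scalings and without hPRM2 replicate 1 (adjusted p = 0.00197) or empty vector replicate 2 (0.036). It missed the threshold without empty vector replicate 1 (0.0687), empty vector replicate 3 (0.0998), hPRM2 replicate 2 (0.0955) or hPRM2 replicate 3 (0.0537), with log2 differences of 4.76 to 5.01, and in the per-gene test of the study's methods (0.336). SETDB2 spans positions 49444374 to 49495003 of chromosome 13 (GENCODE 29, plus strand). Its upstream neighbour CAB39L was at 1.07, 1.98 and 8.40 RPKM in empty vector and 0, 0 and 2.38 in hPRM2, and its downstream neighbour PHF11 was at 10.7, 1.69 and 3.05 and then 0 in all 3, so neither was higher there as a group.

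No other H3K9 methyltransferase was called in hPRM2. SUV39H2 was at 0, 1.75 and 8.88 RPKM, below the 10.3 to 14.6 of empty vector in each library (−2.21 ± 0.89, adjusted p = 0.18), and SETDB1 ranged from 0.27 in replicate 1 to 57.1 in replicate 3. HDAC1 was at 162, 92.2 and 81.3 RPKM in hPRM2 (−0.42 ± 0.36, adjusted p = 0.478) and HDAC2 at 85.3, 23.0 and 47.7 (−0.25 ± 0.55), whose ranges overlapped those of empty vector. PRMT1 was at 123, 184 and 181 (−0.07 ± 0.33) and PRMT5 at 140.1, 87.7 and 60.1 (−0.03 ± 0.45), which overlapped empty vector in each case. These errors leave room for differences in either direction.

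Several members had larger differences that were not called. KDM4B, a demethylase of H3K9, was at 28.0, 120.3 and 81.5 RPKM in hPRM2 against 15.3 to 18.9 (1.84 ± 0.58, adjusted p = 0.121), and NSD1, an H3K36 methyltransferase, at 54.96, 99.4 and 58.4 against 11.4 to 30.4 (1.62 ± 0.51, 0.121). At the low end, SIRT6, a chromatin-bound sirtuin, was at 0, 7.78 and 7.84 against 18.6 to 21.7 (−2.34 ± 0.92, 0.176), and PRMT6 at 0, 3.32 and 3.42 against 9.86 to 14.0 (−2.33 ± 0.74, 0.124). KMT2A, the founding MLL methyltransferase, was at 6.50, 49.5 and 18.7 against 65.9 to 110.4 (−2.17 ± 0.70, 0.127), and NSD3 at 14.2, 30.3 and 80.4 against 112 to 156 (−1.91 ± 0.62, 0.127). In each of these 6 genes the groups did not overlap.

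Other members at the ends of their classes were not called either. Among the deacetylases HDAC6, a cytoplasmic tubulin deacetylase, was highest at 213, 120.7 and 68.3 RPKM against 34.6 to 75.7 (1.34 ± 0.53, adjusted p = 0.175), and HDAC7 was lowest (−1.22 ± 0.52, 0.198). KMT2D was at 0, 82.5 and 42.5 RPKM against 0.90 to 14.7 (1.09 ± 1.73, 0.701), and KMT5A at 0.39 in replicate 1 but 72.4 and 62.2 in replicates 2 and 3, against 63.1 to 128 (−2.19 ± 1.47, 0.368). KMT5C, which trimethylates H4K20, was at 38.9, 47.5 and 29.9 against 16.6 to 18.5 (1.08 ± 0.39, 0.156), with the groups apart. SETD3, an actin histidine methyltransferase, was at 7.36, 3.89 and 8.87 against 26.3 to 35.4 (−2.07 ± 0.50, 0.0725), also apart.

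hPRM2 replicate 1 weighed on these counts. Without it, 72 members were tested, 6 were called higher (SETDB2, KDM4B, SIRT7, KMT2E, KDM5C and KDM2A) and 8 lower (SIRT4, SETD7, SETD3, KDM4D, KAT2B, PRMT6, KDM4A and SIRT6), against 5.30% and 12.3% of all genes tested. SIRT4, KDM4D and KAT2B were below 1 RPKM in hPRM2 replicates 2 and 3. They passed the filter through empty vector alone, so their calls are no support. In the replicate left out, SIRT4 was at 11.7, KDM4D at 9.67 and KAT2B at 0.41 RPKM. KDM2A, an H3K36 demethylase, was at 7.58 RPKM in replicate 1 and at 164 and 119 in replicates 2 and 3, against 54.5 to 60.7 in empty vector.

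**Figure D4:**
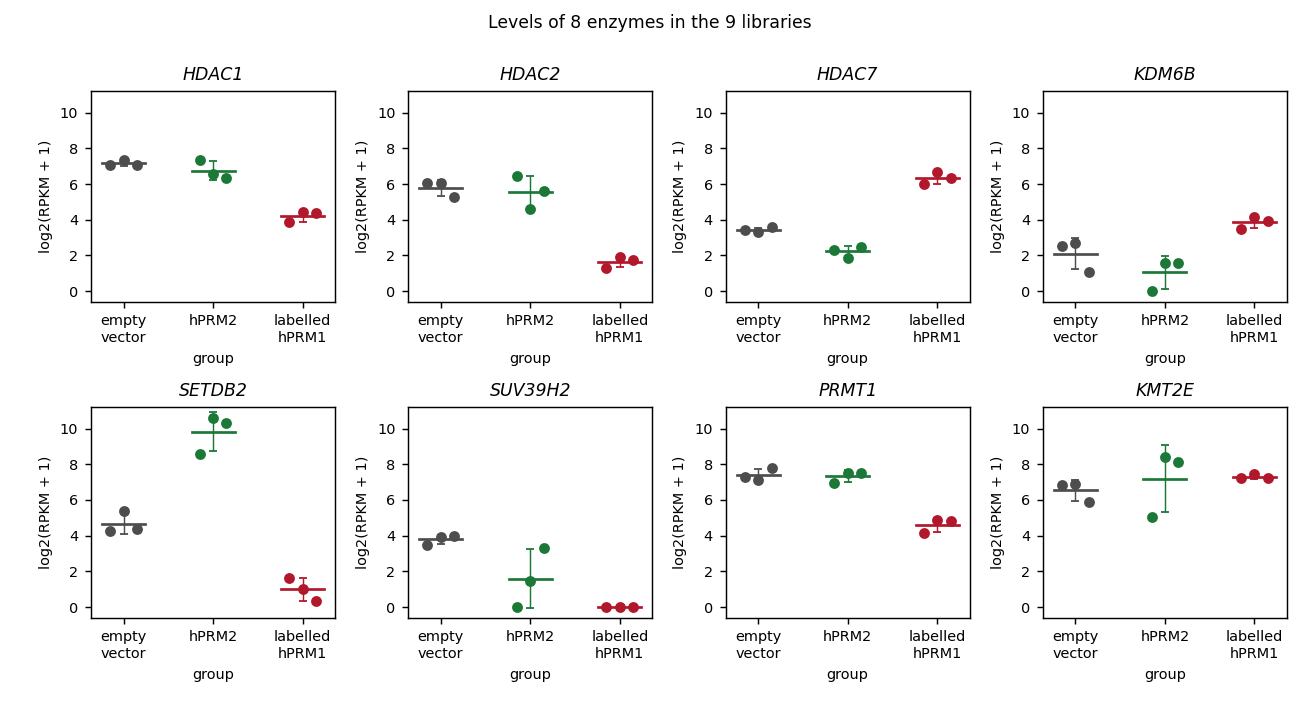
Level of 8 enzymes in the 9 libraries, as log2(RPKM + 1), with 1 point per library, a line at the group mean and bars of ± 1 SD (n = 3). HDAC1, HDAC2 and PRMT1 overlap between empty vector and hPRM2 and are lower in the libraries labelled hPRM1, HDAC7 and KDM6B are highest there, SUV39H2 is at 0 there, and SETDB2 is at 382 to 1573 RPKM in hPRM2 against 18.2 to 40.4 in empty vector.

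The libraries labelled hPRM1 were finally set against hPRM2, where the median of all 11756 genes was −0.97 and that of the 67 members tested was −0.64. As deposited 6 members were higher and 20 lower, against 16.0% and 37.0% of all genes tested. Rescaling gave 22 and 5 after median of ratios (31.1% and 18.3% of all genes) and 15 and 13 after quantile normalization (24.6% and 26.4%). Without hPRM2 replicate 1, 7 were higher and 23 lower (20.5% and 42.1%), and by non-overlap of the groups 10 and 26 (19.0% and 43.1%). Under all 3 scalings 4 were higher, HDAC7, KDM6B, KDM7A and NSD3, and 5 were lower, SETDB2, HDAC2, HDAC8, PRMT3 and PRMT5, against 15.6% and 18.1%. A total of 7 members passed the filter on low values through one of the groups alone, which selects them for a difference, and all 7 were called as deposited. PRMT3, which passed through hPRM2 alone, is the 1 of these lower under all 3 scalings, and its call is no support. KDM7A reached 1 RPKM in hPRM2 in replicate 3 only, and HDAC8 in the libraries labelled hPRM1 in replicate 2 only. Both passed through the group where they were higher, so their calls are no support either. SETDB2 differed most (−8.83 ± 0.65, limma adjusted p = 0.0002), followed by HDAC7 (4.12 ± 0.36, 0.000317). NSD3 rested on the low hPRM2 values given above (2.10 ± 0.61, 0.0283), and KDM7A, a demethylase of H3K9 and H3K27, on 0, 0.61 and 1.15 RPKM in hPRM2 against 3.10, 4.53 and 3.41 (1.62 ± 0.40, 0.0147). The per-gene test of the study's methods called 0 members in this comparison, with 10 at an unadjusted p under 0.05.

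The partners of these enzymes were read from the same fits in 7 lists of 101 genes. In the libraries labelled hPRM1, 94 were tested, 3 were higher and 52 lower as deposited (all genes 12.9% and 62.5%), and 3 and 15 under all 3 scalings (all genes 12.9% and 28.0%). These counts include partners that passed the filter through one group alone, which selects them for a difference, so any calls of theirs are no support. Among them are PADI4, through the libraries labelled hPRM1, and TADA1, MTA3, JADE3, SETMAR, DOT1L, RCOR2 and SMYD5, through empty vector. By list, 0 were higher and 16 lower of 28 deacetylase complex subunits, 1 and 10 of 27 acetyltransferase genes and subunits, 0 and 9 of 12 methyltransferase complex subunits, and 0 and 7 of 9 further methyltransferases. Of the further demethylases and deiminases 2 were higher and 3 lower of 7, of the bromodomain readers 0 and 4 of 6, and of the enzymes that supply methyl and acetyl donors 0 and 3 of 5. The largest falls were those of DPY30, a core subunit of the H3K4 methyltransferase complexes, from 170.2, 162 and 191 RPKM to 5.09, 3.21 and 5.18 (−5.02 ± 0.22, limma adjusted p = 5.38e-06), and RBBP7, a histone-binding subunit of deacetylase complexes, from 222, 235 and 306 to 11.05, 9.74 and 6.11 (−4.70 ± 0.26, 1.13e-05). HAT1, which acetylates new histone H4, fell from 61.7, 46.6 and 36.2 to 2.40, 1.77 and 0.97 (−4.18 ± 0.30, 2.97e-05), and AHCY, which clears the by-product of methylation, by 3.52 (SE 0.19). SMYD2, a lysine methyltransferase, fell by 3.27 (SE 0.30), and these 5 falls held under all 3 scalings. PADI4, a histone deiminase of granulocytes, was listed at 0 in empty vector and hPRM2 and at 19.3, 22.6 and 18.2 RPKM in the libraries labelled hPRM1, and BRD8, a bromodomain reader, fell as deposited (−2.08 ± 0.24) but was not called after either rescaling (0.10 and −0.37).

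In hPRM2, 92 partners were tested, and SGF29, a SAGA subunit, was the only one called: it was at 110, 121 and 115 RPKM in empty vector and 16.6, 8.25 and 1.31 in hPRM2 (−4.01 ± 0.75, limma adjusted p = 0.0428), a call lost after both rescalings (−3.50 and −3.78). The most different genes of the other 6 lists were not called, among them CHD4, the NuRD helicase (−2.99 ± 1.08, adjusted p = 0.152), SMYD5 (−2.21 ± 0.45, 0.0534), NCOA6 (−2.15 ± 0.77, 0.151) and BRD3 (−1.52 ± 0.42, 0.0971). SMYD5 was at 0 in all 3 hPRM2 libraries and passed the filter through empty vector alone, which selects it for a difference. DPY30 was at 341, 99.5 and 101 RPKM, HAT1 at 95.7, 53.0 and 31.2 and RBBP7 at 972, 113 and 146 in hPRM2, ranges that in all 3 genes reached from below to above the empty vector values. Between the libraries labelled hPRM1 and hPRM2, 88 partners were tested, 6 were higher and 28 lower as deposited (16.0% and 37.0% of all genes), and 6 and 6 under all 3 scalings (15.6% and 18.1%). Here too some passed the filter through one group alone, PADI4 and PADI2 among them. PRDM2, an H3K9 methyltransferase, was the most different of its list there (3.19 ± 1.03, adjusted p = 0.0394) and was higher under all 3 scalings.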

How the data were processed

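RNA labelled as from sorted HEK293T cells was measured with a 3′ mRNA tag protocol in 9 libraries, 3 per group. The authors trimmed, aligned and quantified the reads with Cutadapt, STAR and Salmon in an nf-core pipeline on hg38 (versions and annotation not given in the sources used here), removed mitochondrial genes and deposited RPKM values, scaled by total reads and gene length, without pooling replicates. Symbols were matched for 56561 of 57338 IDs. The members and lists, and the rule for named genes, were chosen with earlier results of these data known. Named genes were drawn from HDAC1, PRMT1, KDM6B, the 5 most abundant members in empty vector, the highest and lowest member of each class per comparison, members called under all 3 scalings and the most different gene of each partner list. KDM5C and KDM6A are given by group difference only, and genes outside the rule (KDM2A, SETDB1, HDAC3, KAT7, members called without hPRM2 replicate 1 and the neighbours of SETDB2 among them) were named after their values were seen. One erythroid marker of the list is not reported here, and the sums leave it out.

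From the deposited RPKM, log2(RPKM + 1) was tested with limma 3.58.1 (trend and robust; R 4.3.3) over genes that reached 1 RPKM in 3 or more of the 6 libraries compared, with Benjamini-Hochberg adjustment over all of them. A call needed an adjusted p of at most 0.05 and a 2-fold difference. Fold changes on this scale understate those of low genes. In the test on simulated data, 100% of 200 changed genes were called for the libraries labelled hPRM1 against empty vector (12244 genes), 90.5% for hPRM2 against empty vector (12561) and 96.5% for the libraries labelled hPRM1 against hPRM2 (10086), all at a log2 change of 3. The simulation gave every gene the same normal spread, the median over genes, and changed only genes of higher level. It held no outlying library, so these shares do not carry over to low genes or to the uneven hPRM2 replicates. Alternatives were other pseudocounts, filters, scalings, a fit of all 9 libraries, the replicate number as a block, the per-gene test of the study's methods and each library left out. Reads on genes were estimated from the RPKM worth of 1 read, and intervals of counting error are not given, since the counts are not in the table. Promoter windows come from RefSeq GRCh38.p14 and gene spans from GENCODE 29.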

Additional observations from a re-analysis of the deposited data

How the results depend on the processing

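For the libraries labelled hPRM1 against empty vector (4 members higher, 43 lower), a pseudocount of 5 gave 2 higher, a minimum of 10 RPKM 2 and 25, median of ratios 28 and 16, quantile normalization 25 and 20, and the per-gene test of the study's methods 2 and 18. The median member difference (−1.34) was −0.88 with a pseudocount of 5, 0.53 after median of ratios, 0.31 after quantile normalization and −1.53 to −0.94 with 1 library left out, the last without empty vector replicate 2. Less the all-gene median (0.38), it was 0.77 and 0.042 with pseudocounts of 0.1 and 5, −0.56 without a filter and 1.10 at a minimum of 10 RPKM. Of the 74 members tested, 29 turned direction after median of ratios and 24 after quantile normalization. Among the genes the naming rule took, these were EHMT2 (0.88, 0.47), KMT5B (1.94, 1.53), PRMT2 (1.44, 1.04), PRMT7 (1.42, 1.04) and SETD5 (0.83, 0.36), and KAT2A after the first alone (0.20). With 1 library left out KAT6A ranged from −0.087 to 0.25 and KMT5B from −0.39 to 0.16.

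For hPRM2 against empty vector (1 and 0), the fit of all 9 libraries gave 4 and 9 (3.86% and 12.3% of all genes), the per-gene test 0 higher, and median of ratios with hPRM2 replicates 2 and 3 only, chosen after seeing the data, 10 and 2 (7.86% and 2.30%), with a median member difference of 0.24 in place of −0.62. Leaving out 1 library gave 0 to 6 higher and 0 to 8 lower calls: 6 and 8 without hPRM2 replicate 1, and 0 higher without empty vector replicate 1 or 3 or hPRM2 replicate 2 or 3. Of the 73 members tested 16 turned after median of ratios and 20 after quantile normalization. Of the rule's genes HDAC1 (0.15), KAT2A (0.47), PRMT1 (0.49) and PRMT5 (0.53) turned after the first, KAT2A (0.65), PRMT1 (0.029) and PRMT5 (0.13) after the second, KAT2A (0.0064) in the per-gene test, and HDAC1 (0.023), KAT2A (0.82), KDM6B (0.0060), KMT5A (0.41), PRMT1 (0.86), PRMT2 (0.27), PRMT5 (0.39) and SETD5 (0.076) in the added setting. With 1 library left out KAT2A ranged from −0.32 to 0.15, KMT2D from −0.13 to 3.06, PRMT1 from −0.21 to 0.13 and PRMT5 from −0.35 to 0.26.

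For the libraries labelled hPRM1 against hPRM2 (6 and 20), no filter gave 3 and 13, a minimum of 10 RPKM 3 and 10, a pseudocount of 5 gave 13 lower, median of ratios 22 and 5, quantile normalization 15 and 13, the per-gene test 0 and 0, and the added setting 22 and 11 (33.2% and 20.8% of all genes). Median member differences (−0.64) were 0.82, 0.26 and 0.55 after median of ratios, quantile normalization and the added setting, and 1.19 less the all-gene median (0.34) at a minimum of 10 RPKM. Of the 67 members tested 22 turned after median of ratios and 12 after quantile normalization. Of the rule's genes, EHMT2 (0.82), SETD4 (0.070), SETD5 (1.70) and SIRT3 (0.0065) turned after the first, EHMT2 (0.28) and SETD5 (1.16) after the second, EHMT2 (0.55) and SETD5 (0.72) in the added setting, and SIRT6 (−0.066) in the per-gene test. With 1 library left out PRMT2 ranged from −0.30 to 1.43, SETD5 from −0.68 to 0.13 and SIRT6 from −0.59 to 0.99. Leaving out 1 library gave 2 to 7 higher and 11 to 23 lower calls, with 2 higher and 11 or 12 lower without any one of the libraries labelled hPRM1, and 13 lower without hPRM2 replicate 2 or 3.

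Deviations of same-numbered libraries from their group means were hardly correlated (−0.08 to 0.08). With 3 libraries a group this cannot decide whether the numbers mark a shared culture or day, which the sources do not say. With the replicate block the counts were 5 and 43, 1 and 0, and 6 and 18. Of the values of the rule's genes under these alternatives, 432 kept their direction and side of the threshold in the libraries labelled hPRM1 against empty vector, 28 lost the threshold, 9 gained it and 14 turned direction. For hPRM2 against empty vector 357 kept both, 5 lost it, 16 gained it and 24 turned, and for the libraries labelled hPRM1 against hPRM2 315 kept both, 65 lost it, 17 gained it and 13 turned. The scalings alter the level of every gene by construction, and the other causes were not tested. By the estimate of reads on genes, depth limits hPRM2 most, and members near 1 RPKM there rest on a few reads.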
